A study of Mus musculus with 6 samples.

Results

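The transcripts described here are those of 10 genes that encode NF-kB subunits and proteins that restrain NF-kB or are made in response to it: Rela, Relb, Nfkb1, Nfkb2, Nfkbia, Nfkbie, Nfkbiz, Bcl3, Tnfaip3 and Birc3. They and the comparison lists below were chosen by name with earlier results of these data known, so their counts are no independent test. Each of the 10 was found by matching the Ensembl identifiers of the count table, which holds 24190 genes, to GENCODE mouse symbols. The samples were MTO54 organoids, a mouse tumor organoid line of the AKP genotype established in earlier work from a primary tumor of a genetically engineered mouse. The 3 control samples grew in complete stem cell medium, and the 3 Folfiri samples received 5FU (50 μg/μl as the labels write it) with SN38, a topoisomerase I inhibitor, at 100 nM, starting 2 days after seeding and lasting 2 days by the labels. A figure legend of the study gives a longer treatment. All 6 samples come from 1 organoid line. In the study, this chemotherapy was a reference treatment for experiments on the transcription factor YAP. Poly(A) RNA was sequenced, and the total of counted reads ranged from 22103591 to 30098210 per sample. Control replicate 1 stood apart from controls 2 and 3 (chi-square per degree of freedom of its counts 23.7 and 22.4, against 3.84 between the latter), and Folfiri replicate 3 from Folfiri 1 and 2 (12.3 and 11.9, against 3.55). The same legend calls the samples biological replicates, 3 per condition. The labels only number them, and neither source says whether they were separate cultures. P-values therefore measure the spread between these samples of 1 line.

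NF-kB is a family of dimeric transcription factors. In resting cells, inhibitor of kB (IkB) proteins hold the dimers in the cytoplasm. Signals from cytokine receptors, pathogen sensors or damaged DNA activate the IkB kinase (IKK) complex, which marks the IkB proteins for degradation and frees the dimers to enter the nucleus. A separate, noncanonical route, driven by the kinase NIK, processes the Nfkb2 product into the partner of RelB. Many NF-kB target genes encode its own subunits and inhibitors, so that the pathway feeds back on itself. In intestinal epithelium and its tumors NF-kB is known for driving survival and inflammatory genes.

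NF-kB dimers bind the kB consensus, taken here as a run of 10 bases: 3 G, a purine, 2 free positions, 2 pyrimidines and 2 C, read on both strands. RefSeq promoter windows on GRCm38.p6, from 250 bases before to 50 after a transcription start, were found for 7 of the 10 genes (not for Relb, Nfkb1 and Nfkbiz). At least 1 match lay in the windows of 5 of the 7 (71.4%): Nfkb2, Nfkbia, Nfkbie, Tnfaip3 and Bcl3. Of all 27025 genes with windows, 2581 (9.55%) held a match, and among tested genes with a window the share was 12.1%. Per window it was 8.46%, and Nfkb2 (3 windows) and Tnfaip3 (2) had more than 1. The 10 genes were chosen partly as genes made in response to NF-kB, so their share is a description and no test. Rela and Birc3 held none. In a stricter form, which also asks for A or T at the sixth base, the same 5 genes kept a match against 5.14% of all genes. A match is a description of the sequence, and binding was not measured. The bases upstream of the start are shown for the feedback genes with the most matches near a start (Nfkb2 and Tnfaip3) and for both cytoplasmic IkB genes. They run 5′ to 3′ on the strand of the gene, with kB matches in capitals.
Nfkb2, start 1 (plus strand, chr19:46304487-46304736): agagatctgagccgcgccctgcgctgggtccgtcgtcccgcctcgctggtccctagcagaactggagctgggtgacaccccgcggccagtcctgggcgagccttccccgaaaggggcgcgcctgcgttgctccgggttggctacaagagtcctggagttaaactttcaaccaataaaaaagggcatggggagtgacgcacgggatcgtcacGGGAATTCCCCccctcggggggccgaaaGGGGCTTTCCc
Nfkbia (minus strand, chr12:55492648-55492897): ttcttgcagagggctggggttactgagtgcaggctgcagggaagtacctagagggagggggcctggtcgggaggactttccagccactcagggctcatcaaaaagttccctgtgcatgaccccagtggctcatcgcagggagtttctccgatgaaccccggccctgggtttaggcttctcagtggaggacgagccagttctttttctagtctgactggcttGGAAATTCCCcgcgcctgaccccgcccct
Nfkbie (plus strand, chr17:45555450-45555699): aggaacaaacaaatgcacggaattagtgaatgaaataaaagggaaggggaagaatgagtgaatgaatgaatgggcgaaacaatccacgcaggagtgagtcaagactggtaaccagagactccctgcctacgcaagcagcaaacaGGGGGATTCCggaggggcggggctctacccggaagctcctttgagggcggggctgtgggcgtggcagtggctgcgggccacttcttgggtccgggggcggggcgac
Tnfaip3, start 2 (minus strand, chr10:19015411-19015660): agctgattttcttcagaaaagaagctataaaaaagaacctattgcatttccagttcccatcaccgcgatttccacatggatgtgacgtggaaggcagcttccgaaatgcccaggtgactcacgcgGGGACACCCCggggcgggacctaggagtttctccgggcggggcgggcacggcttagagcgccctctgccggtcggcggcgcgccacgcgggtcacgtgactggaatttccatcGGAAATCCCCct

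In the Nfkb2 sequence, the first run of capitals holds a pair of overlapping matches, GGGAATTCCC at -39 to -30 and GGAATTCCCC at -38 to -29, and GGGGCTTTCC lay at -11 to -2. A further 2 Nfkb2 windows, around starts 2 and 3, held GGAATGTCCC at -236 to -227 of start 2 and GGGACTTTCC at 11 to 20 of start 2. The Nfkbia match, GGAAATTCCC, lay at -29 to -20, and that of Nfkbie, GGGGGATTCC, at -106 to -97. Tnfaip3 had GGGACACCCC at -125 to -116 and GGAAATCCCC at -12 to -3 of its start 2 and none around its start 1. Bcl3 held GGGAAGTCCC at 3 to 12, just after the start.

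**Figure D1:**
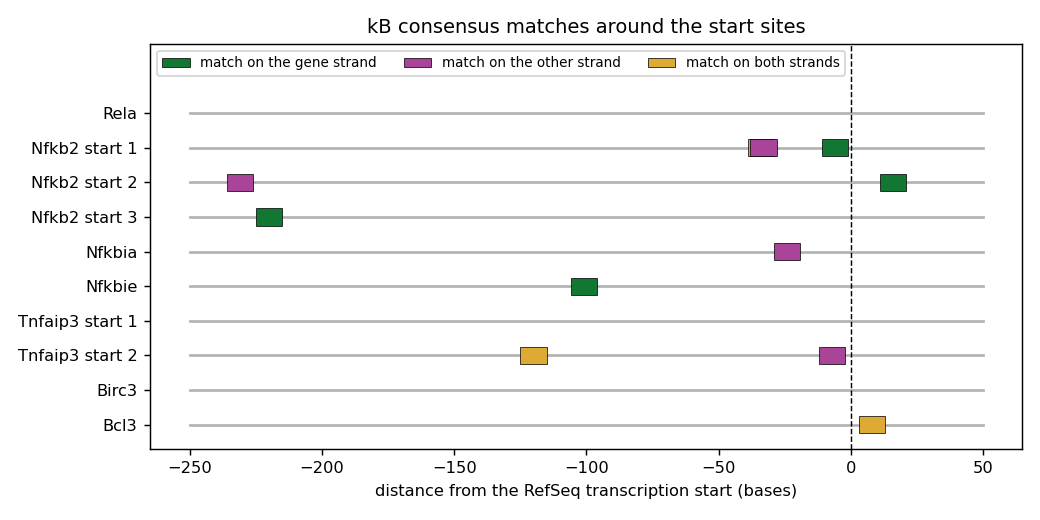
Matches to the kB consensus in the RefSeq windows of 7 genes, as bars along the distance from each transcription start in bases; each row is 1 window, and color gives the strand of the match. Matches lay within 40 bases before a start in Nfkb2, Nfkbia and Tnfaip3, and the windows of Rela, Birc3 and start 1 of Tnfaip3 held none.

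All 10 genes were higher after Folfiri than in control in edgeR's quasi-likelihood test, with p-values adjusted over the 14692 genes tested. None was lower at an adjusted or an unadjusted p under 0.05, and DESeq2 gave the same counts of 10 and 0. The treatment moved most of the transcriptome: 79.1% of tested genes passed the threshold of 0.05, 40.3% as higher and 38.8% as lower. The median log2 fold change was 1.06 over the 10 genes and 0.02 over all tested genes. In each of the 10, every Folfiri sample lay above every control sample in counts scaled to library size (CPM, TMM-normalized), a pattern seen in 41.6% of tested genes. Of the 10, 9 reached the expression filter in their control samples, and Nfkbie reached it in its Folfiri samples only. In bulk RNA, a change in the number of cells of a kind and a change in RNA per cell cannot be told apart.

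**Figure D2:**
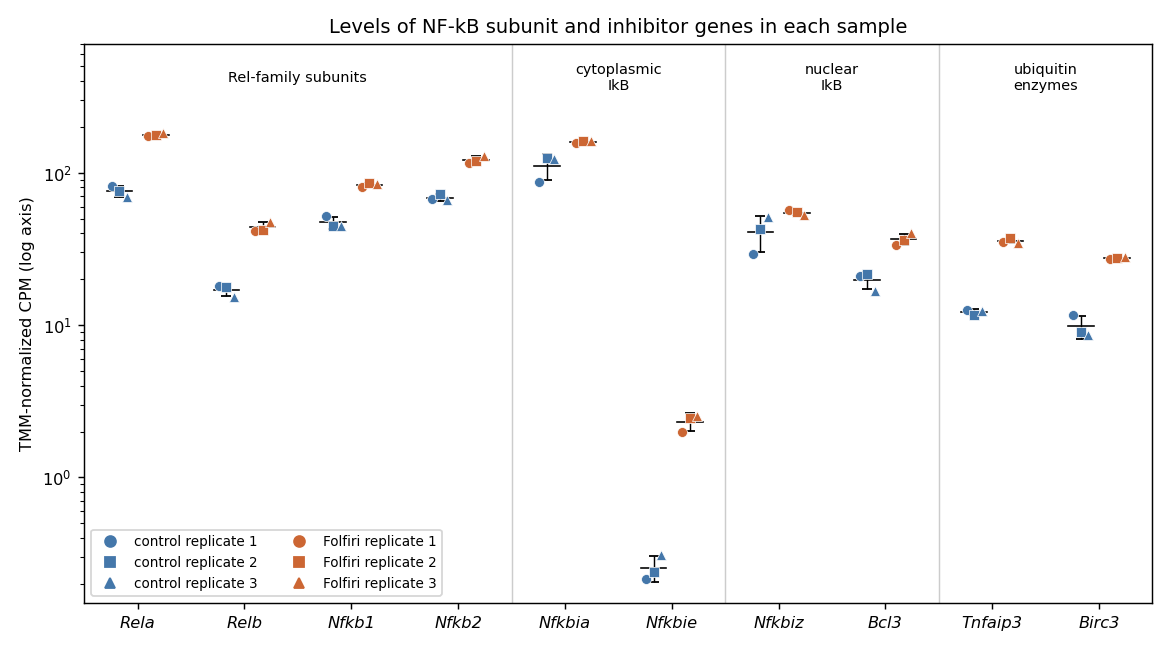
TMM-normalized CPM (log axis) of the 10 genes in each of 3 control (blue) and 3 Folfiri (orange) samples, with replicate numbers as symbols, group means as lines and SD as bars. Folfiri samples lie above control samples for each gene, with the widest gap for Nfkbie and the narrowest for Nfkbiz.

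Rela and Relb, whose products carry a transactivation domain, more than doubled. Rela (chr19:5637483-5648130), the main activating subunit of the canonical pathway, stood at 81.9, 76.1 and 68.8 CPM in control replicates 1 to 3 and at 175, 176 and 182 CPM after Folfiri. The Folfiri samples lay close together, well above the highest control. Its mean rose from 75.6 ± 6.57 to 178 ± 4.11 CPM (SD, n = 3), a 2.35-fold change (log2 fold change 1.23 ± 0.08 SE, edgeR adjusted p = 1.85e-07). Relb (chr7:19606217-19629438), the activating subunit of the noncanonical pathway, had 18.0, 17.7 and 15.2 CPM in control and 41.2, 42.2 and 47.8 CPM after Folfiri. Per exonic length it was the less abundant of the pair in every sample. Its 2.57-fold rise (log2 fold change 1.36 ± 0.10 SE, edgeR adjusted p = 4.21e-07) put it above 87.1% of tested genes.

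The genes of the precursor subunits rose by less. Nfkb1 (chr3:135584655-135691547) encodes the precursor of the DNA-binding partner of RelA, and had 52.2, 44.7 and 44.5 CPM in control against 80.2, 85.5 and 84.4 CPM after Folfiri. Nfkb2 (chr19:46304320-46312385), whose precursor product also acts as an IkB until it is processed, had 66.9, 72.6 and 66.6 CPM against 116, 119 and 129 CPM. Neither gene had overlapping groups, and their folds were alike, 1.77 for Nfkb1 (log2 fold change 0.82 ± 0.08 SE, edgeR adjusted p = 5.15e-06) and 1.76 for Nfkb2 (0.82 ± 0.07 SE, adjusted p = 2.12e-06). Of the exonic bases of Nfkb2, 11.6% are shared with AC114539.1 and 6.52% with Psd on the opposite strand. The library kit does not mark strand, so reads from these bases cannot be assigned. Those genes held 44 to 190 and 81 to 987 counts per sample, against 1296 to 4242 for Nfkb2. The effect of the overlap on the Nfkb2 count was not tested.

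Together, transcripts of the family's subunits, Rel included, summed to 46.6 to 52.0 counts per kilobase of exon in the same scaling (RPKM) in control and 102 to 109 RPKM after Folfiri. Rel encodes c-Rel, the remaining activating subunit, and rose less than the others (13.4, 16.4 and 15.3 against 20.6, 23.6 and 16.9 CPM, log2 fold change 0.44 ± 0.13 SE, edgeR adjusted p = 0.0105), a call lost without Folfiri replicate 2 (log2 fold change 0.33, adjusted p = 0.0566). The make-up of this sum moved towards Rela, from 49.3% ± 1.74 to 55.0% ± 0.601 (SD, n = 3), and Relb, from 8.74% to 10.7%. Nfkb2 took 30.1% ± 1.77 in control and 25.1% ± 0.547 after Folfiri, Nfkb1 7.83% and 6.57%, and Rel 4.05% and 2.60%. For each of the 5 genes, the shares of the 3 control samples did not overlap those of the 3 Folfiri samples. These shares are of transcripts per exonic length and give no amount of protein.

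**Figure D3:**
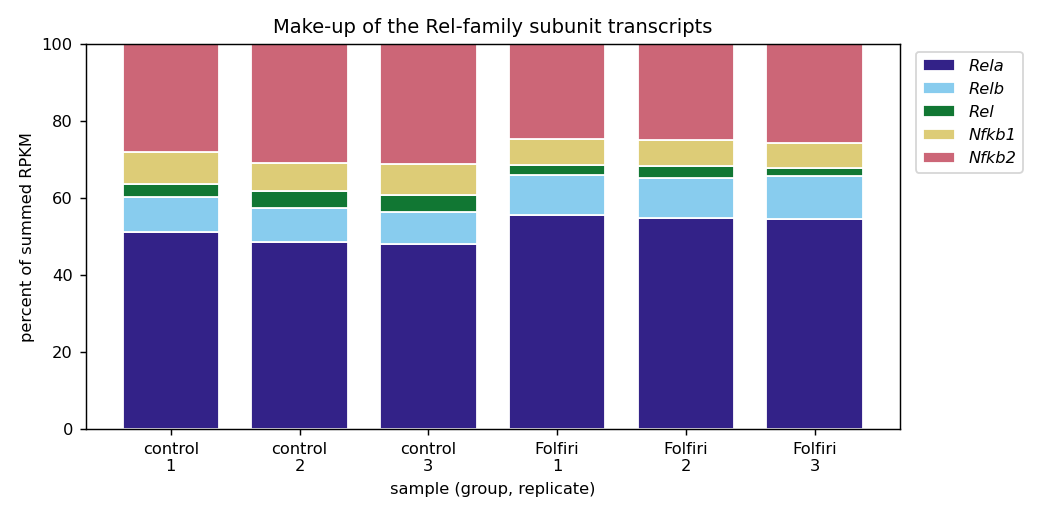
Percent of the summed RPKM of the Rel-family subunit genes taken by each gene, as a stacked bar for each control and Folfiri sample. Rela takes 48.1% to 51.3% in control and 54.5% to 55.7% after Folfiri, and Nfkb2 28.1% to 31.2% and 24.8% to 25.8%.

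The cytoplasmic IkB genes differed widely in level and in response. Nfkbia (chr12:55489410-55492647) encodes IkBα, the classical fast feedback inhibitor, and carries the kB match at -29 shown above. It had 86.9, 124 and 123 CPM in control and 157, 163 and 160 CPM after Folfiri. Control replicate 1 lay far below the other controls, while the Folfiri samples were tightly grouped above all of them. The change was 1.44-fold (log2 fold change 0.52 ± 0.12 SE, edgeR adjusted p = 0.00203), and without control replicate 1 the log2 fold change was 0.37 (adjusted p = 4.99e-05).

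Nfkbie (chr17:45555703-45563169) encodes IkBε, an inhibitor also induced by NF-kB. It held 6 counts in each control sample and 59, 76 and 84 counts after Folfiri, or 0.216, 0.240 and 0.309 against 1.98, 2.45 and 2.55 CPM. No control came near the Folfiri samples, and per exonic length this gene was the least abundant of the 10 in both groups. Its 9.19-fold change (log2 fold change 3.20 ± 0.26 SE, edgeR adjusted p = 1.10e-06) was the largest of the 10 and above that of 97.8% of tested genes.

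Nfkbiz and Bcl3 encode nuclear members of the IkB family, which bind NF-kB dimers on DNA rather than retaining them in the cytoplasm. They were higher after Folfiri with different certainty. Nfkbiz (chr16:55811375-55838899), which encodes the coactivator IkBζ, had 29.1, 43.0 and 50.9 CPM in control and 56.5, 54.9 and 52.9 CPM after Folfiri. The highest control came close to the lowest Folfiri sample, and the spread among controls (SD 11.0) exceeded that among Folfiri samples (SD 1.83). Its log2 fold change of 0.42 ± 0.16 SE (edgeR adjusted p = 0.0307) was the smallest of the 10. Leaving out any 1 Folfiri sample ended the call at log2 fold changes of 0.40, 0.43 and 0.45 (adjusted p = 0.0769, 0.0635 and 0.0625), and leaving out control replicate 1 lowered the change to 0.23 (adjusted p = 0.0177). Bcl3 (chr7:19808462-19822770), a cofactor of the Nfkb1 and Nfkb2 products, had 21.0, 21.6 and 16.8 CPM against 33.6, 36.0 and 40.1 CPM. Its groups were well apart and it rose 1.85-fold (log2 fold change 0.88 ± 0.11 SE, edgeR adjusted p = 2.78e-05). Gm16175, on the opposite strand, covers 6.51% of its exonic bases.

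Both genes for ubiquitin-system regulators rose by similar factors. Tnfaip3 (chr10:19000910-19015657) encodes A20, which edits ubiquitin chains to shut off IKK activation. It had 12.6, 11.6 and 12.4 CPM in control and 35.0, 37.1 and 34.8 CPM after Folfiri. Little spread within either group stood beside this gap, and with a 2.92-fold change (log2 fold change 1.55 ± 0.08 SE, edgeR adjusted p = 7.00e-08) Tnfaip3 had the smallest adjusted p of the 10. Birc3 (chr9:7848699-7873186) encodes cIAP2, a ubiquitin ligase that promotes canonical signaling and restrains the noncanonical pathway. It had 11.7, 9.04 and 8.64 CPM in control and 27.3, 27.7 and 27.9 CPM after Folfiri, a 2.81-fold change (log2 fold change 1.49 ± 0.12 SE, edgeR adjusted p = 8.35e-07). Its relative and neighbor on chromosome 9, Birc2 (cIAP1), went the other way, from 32.0, 41.0 and 42.1 to 16.8, 18.2 and 16.5 CPM (log2 fold change -1.15 ± 0.11 SE, edgeR adjusted p = 3.95e-06). Per exonic length, Birc2 was the more abundant of these genes in each control sample (6.98, 8.94 and 9.18 RPKM) and Birc3 in each Folfiri sample (5.46, 5.53 and 5.58 RPKM against 3.68, 3.98 and 3.61 RPKM).

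Library composition and single samples bore on all of these values. Trimmed-mean scaling factors were 0.880 to 0.966 in control and 1.10 to 1.11 in Folfiri samples. When libraries were scaled by total counts alone, the median moved from 0.02 to 0.30 on the log2 scale over all tested genes and from 1.06 to 1.33 over the 10 genes, higher genes made up 63.3% of called genes instead of 51.0%, and 49.8% of tested genes were called higher. The 10 genes stayed higher. Control replicate 1 was the lowest control for Nfkbia, Nfkbie and Nfkbiz and the highest for Rela, Relb, Nfkb1, Tnfaip3 and Birc3. Without it, all 10 genes were still called higher. Folfiri replicate 3 was the highest Folfiri sample for 6 of the 10, and without it 9 were called higher, with Nfkbiz the exception.

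Per exonic length, Nfkbia was the most abundant of the 10 transcripts in both groups, at 69.1 RPKM in control and 99.4 RPKM after Folfiri. Rela followed at 24.6 and 57.8 RPKM, and Nfkb2 at 15.0 and 26.4 RPKM. In control, Nfkbiz (8.17 RPKM) and Bcl3 (7.99 RPKM) overlapped between samples, as did Relb (4.36 RPKM) and Nfkb1 (3.91 RPKM), and Birc3 (1.96 RPKM) and Tnfaip3 (1.69 RPKM). After Folfiri the middle of the order changed to Bcl3 (14.8 RPKM), Relb (11.3 RPKM), Nfkbiz (10.9 RPKM) and Nfkb1 (6.91 RPKM), with Relb and Nfkbiz overlapping. Birc3 (5.52 RPKM) and Tnfaip3 (4.93 RPKM) no longer overlapped, and Nfkbie was last in both groups (0.0837 and 0.764 RPKM).

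Ratios between transcripts of 1 sample do not depend on library scaling, and 6 were compared. With 3 samples against 3 the smallest p that the exact two-sided permutation test allows is 0.1, or 0.15 after adjustment over these ratios, so none could pass the threshold. Nfkbia over Rela, an inhibitor against its main target, had a log2 ratio of 1.02, 1.64 and 1.77 in control and 0.78, 0.82 and 0.75 after Folfiri. Every Folfiri sample was below every control, by 0.69 on average (exact permutation p = 0.1, adjusted 0.15). Control replicate 1 was the nearest to the Folfiri samples. Nfkbie over Nfkbia went from -9.69 ± 0.22 to -7.03 ± 0.17 (SD, n = 3), a difference of 2.66 (exact permutation p = 0.1, adjusted 0.15).

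Cyld encodes a deubiquitinase that restrains NF-kB by removing other ubiquitin chains. The log2 ratio of Tnfaip3 over Cyld rose by 0.88 to -0.02 ± 0.07, near equal levels per annotated exonic length. Its groups did not overlap (exact permutation p = 0.1, adjusted 0.15). Relb over Rela differed by 0.13, with Folfiri above control in each sample (exact permutation p = 0.1, adjusted 0.15). The groups overlapped for Nfkb2 over Nfkb1 (1.94 ± 0.17 and 1.93 ± 0.07, exact permutation p = 1) and for Nfkbiz over Nfkbia (-3.10 ± 0.17 and -3.19 ± 0.07, exact permutation p = 0.6, adjusted 0.72).

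**Figure D4:**
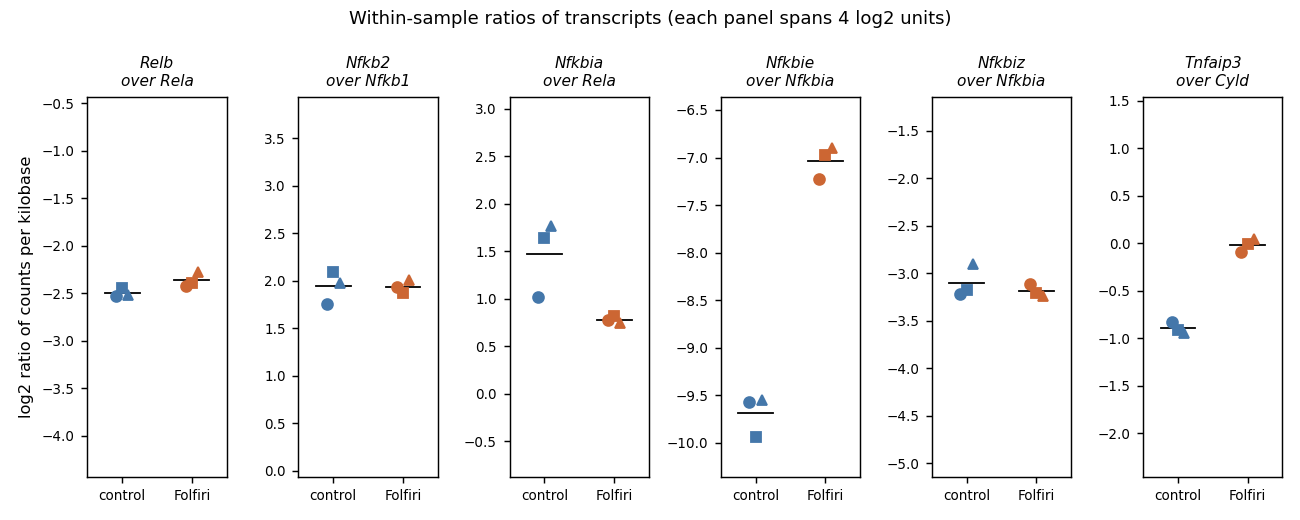
Log2 ratio of counts per kilobase for 6 pairs of transcripts in each control (blue) and Folfiri (orange) sample, with replicate 1 as a circle, 2 as a square and 3 as a triangle, and group means as lines; each axis spans the same range. Nfkbie over Nfkbia is shifted the most, and groups overlap for Nfkb2 over Nfkb1 and for Nfkbiz over Nfkbia.

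The rest of the pathway did not move as uniformly as the 10 genes. Of 9 other genes of the NF-kB family, 5 were higher and 4 lower in the same test (median log2 fold change 0.44), beside 40.3% and 38.8% of all tested genes. The higher ones included further IkB genes, Nfkbid, which encodes nuclear IkBNS (0.517 to 3.49 CPM, log2 fold change 2.79 ± 0.23 SE), and Nfkbib, which encodes cytoplasmic IkBβ (11.8 to 27.0 CPM, 1.20 ± 0.12 SE). Nfkbib shares 14.5% of its exonic bases with Ccer2, which leaves its count less certain. Nfkbil1, Nkiras1, Nkiras2, Nkap, Ikbkg, Ikbke, Myd88, Map3k14, Btrc, Commd1 and Il1a share exonic bases with other genes as well. The lower ones were Nkiras2, whose product slows the degradation of IkB proteins (log2 fold change -1.10), Ikbip (-1.09), Nkap (-0.55) and Nfkbil1 (-0.37). The call of Nfkbil1 was lost with total counts alone (-0.09, edgeR adjusted p = 0.543), with upper quartile factors (-0.31, adjusted p = 0.0509) and without control replicate 2 or 3 or Folfiri replicate 2 (adjusted p = 0.0853, 0.0634 and 0.126). Nfkbid passed the expression filter through its Folfiri samples, with fewer than 3 control samples reaching it.

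Among 35 tested genes of the IKK complex and its adaptors, 18 were higher and 8 lower (51.4% and 22.9%, median 0.24). Of all tested genes, 40.3% were higher and 38.8% lower. Traf1, 1 of the 18, passed the expression filter through its Folfiri samples. The kinases themselves were unequal: Ikbkb, the catalytic subunit of the canonical route, went from 71.8 to 148 CPM (log2 fold change 1.04 ± 0.06 SE), while Chuk and the scaffold Ikbkg changed by 0.21 and 0.27. Chuk lost its call without control replicate 2 or Folfiri replicate 1 or 2 (edgeR adjusted p = 0.107, 0.0613 and 0.0630). Map3k14, which encodes NIK, went from 2.24 to 10.3 CPM (2.20 ± 0.14 SE), alongside Ikbke (1.90), Myd88 (1.77) and Traf3 (1.53), whose product keeps NIK low. Lower genes were Birc2, Btrc (-0.95), which encodes the receptor of phosphorylated IkB in its ubiquitin ligase, Tradd (-0.73) and Ticam1 (-0.58). Ticam1 lost its call with total counts alone (-0.32, edgeR adjusted p = 0.249), without control replicate 1 (-0.27, adjusted p = 0.0675) and without Folfiri replicate 2 or 3 (adjusted p = 0.0777 and 0.0620). Scaled by total counts alone, 23 were higher and 3 lower, while the share called higher over all tested genes rose to 49.8%.

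Other negative regulators split into 9 higher and 5 lower of 18 tested (50% and 27.8%, median 0.28), beside 40.3% and 38.8% of all tested genes. When scaled by total counts, 12 were higher and 3 lower, beside 49.8% of all tested genes called higher. Tnip3, a partner of A20, rose from 1.88 to 17.3 CPM (log2 fold change 3.18 ± 0.14 SE), and Zc3h12a, an RNase that cuts inflammatory transcripts, from 1.40 to 9.73 CPM (2.77 ± 0.16 SE). The deubiquitinase genes Otud7b (0.91), Otulin (0.90) and Cyld (0.67) rose by less, and Commd1 (-1.08), Itch (-0.82), Tollip (-0.61) and Pdlim2 (-0.36) fell, Pdlim2 only with composition scaling (-0.09 with total counts alone, edgeR adjusted p = 0.496). Itch encodes a ligase that works with A20.

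Receptor and ligand genes were higher in 16 and lower in 2 of 21 tested (median 0.81), beside 40.3% and 38.8% of all tested genes. Of the 16, 4 (Tlr1, Nod2, Ltb and Il17c) passed the expression filter through their Folfiri samples, with fewer than 3 control samples reaching it, and a gene that enters in this way can hardly be called lower. Tnf, a ligand that activates the canonical pathway, had 3.10, 4.48 and 3.81 CPM in control and 25.9, 30.0 and 31.6 CPM after Folfiri (log2 fold change 2.95 ± 0.14 SE, edgeR adjusted p = 3.28e-08). Il1a (3.25), Nod2 (3.82) and Tlr1 (from 0.539 to 3.20 CPM) rose as well. Without control replicate 1, the highest control for both, the log2 fold change of Nod2 was 4.67 and that of Tlr1 was 3.23. Nod1 (-1.17) and Il17rc (-0.61) fell. Genes widely used as NF-kB targets, the 10 genes left out, were higher in 17 and lower in 3 of 22 tested (median 1.65). Of the 17, Vcam1, Lcn2, Csf2 and Nos2 likewise passed the filter through their Folfiri samples. Among those with a mean of at least 1 CPM, the largest changes were in Lcn2 (4.80, from 0.142 to 3.96 CPM), Cxcl1 (4.32, from 3.40 to 68.6 CPM), Ptgs2 (4.32, from 5.56 to 112 CPM) and Csf1 (4.24, from 0.949 to 18.6 CPM). The apoptosis regulators Ier3 (-0.78) and Cflar (-0.33) and the adhesion gene Ninj1 (-0.49) were lower, Cflar not with total counts alone (-0.05, edgeR adjusted p = 0.636). Of the targets with a RefSeq window, 10 of 21 (47.6%) held a kB match. In the other lists the shares were 14.3% (4 of 28) of IKK and adaptor genes, 20% (4 of 20) of receptor and ligand genes, 25% (2 of 8) of other family genes, 26.7% (4 of 15) of negative regulators and, among marker lists, 28.6% (2 of 7) of epithelial, 25% (1 of 4) of fibroblast and endothelial and 0 of 9 immune cell markers. Tested genes as a whole held one in 10.6% of those called higher and 13.4% of those called lower.

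**Figure D5:**
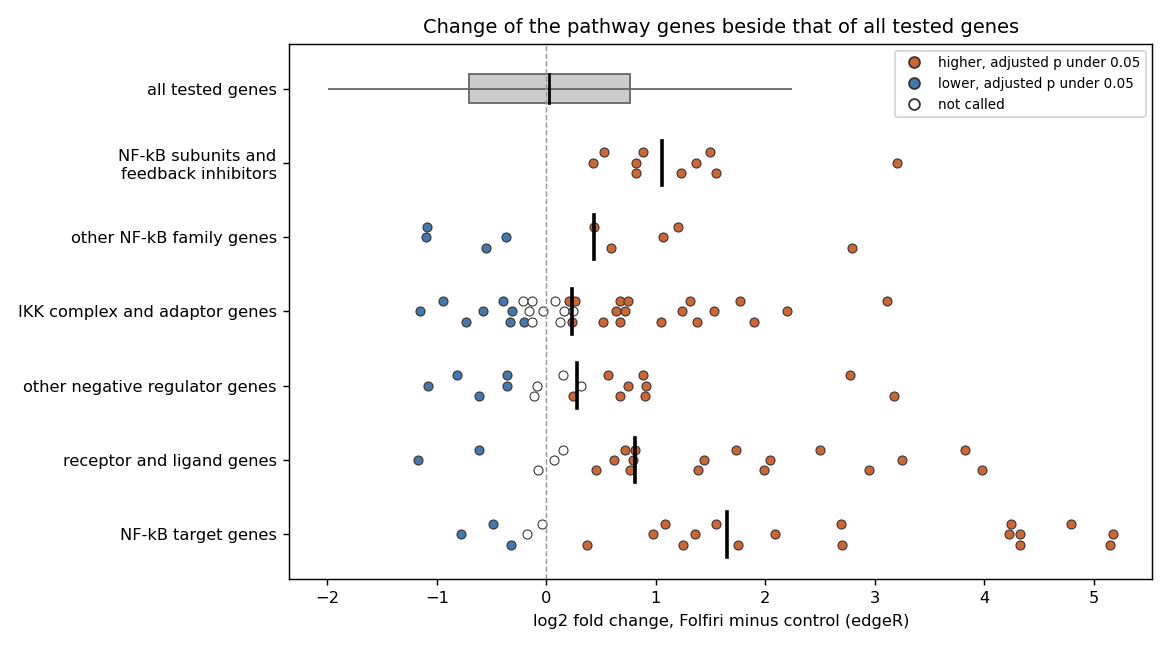
Log2 fold change (Folfiri minus control, edgeR) of each tested gene in 6 lists of the pathway, with list medians as black lines and fill for the call at an adjusted p under 0.05; for all tested genes the box spans the middle 50% and the line the 5th to 95th percentile. The 10 subunit and inhibitor genes all lie right of 0, whereas the other lists hold genes on both sides.

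The genes nearest to Nfkbia in pattern, by root mean square distance of centred log2 CPM over the 6 samples, were 1700120C14Rik (0.0284), Nr4a1 (0.0319) and Lmbr1l (0.0323). Genes chosen by pattern resemble their reference gene by construction, and each of these was lowest in control replicate 1, like Nfkbia. The first, 1700120C14Rik, lay at only 0.756 to 1.52 CPM. Nr4a1, an immediate early nuclear receptor gene, had 39.6, 56.2 and 52.4 CPM in control and 69.8, 70.9 and 71.7 CPM after Folfiri. Nearest to Nfkb2 were Mef2d (0.0253), Rmdn3 (0.0280) and Ifnar2 (0.0287), with log2 fold changes of 0.78, 0.84 and 0.81 against 0.82 for Nfkb2.

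Epithelial marker transcripts were abundant in every sample, with the 9 markers summing to 5977 to 6947 CPM in control and 4818 to 4992 CPM after Folfiri, and Epcam falling from 1252 to 653 CPM. Of the 9, 5 were lower (Cdx2 by the most, log2 fold change -1.53), Cdh1 was higher (0.21) and Krt18, Krt20 and Vil1 were not called. Krt8, 1 of the 5, did not stay lower with total counts alone (log2 fold change 0.00467, edgeR adjusted p = 0.950). Markers of immune cells, 12 of 13 of them in the table, summed to 0.920 to 1.08 CPM in control and 2.94 to 3.35 CPM after Folfiri. Of these, Ptprc, Adgre1 and Fcer1g were tested and higher, all 3 having passed the expression filter through their Folfiri samples, and Cd3g, Lyz2 and Tyrobp held at most 3 counts over all 6 samples. Of 11 fibroblast and endothelial markers, 10 were in the table and summed to 73.6 to 126 CPM in control and 67.5 to 78.4 CPM after Folfiri, nearly all from Cdh5. Of 5 tested, Dcn (2, 0 and 0 counts in control against 19, 26 and 20 after Folfiri) and Pdgfra (0.397 to 1.14 CPM, log2 fold change 1.54) were higher and Col1a1 (0.842 to 0.301 CPM, -1.47) was lower, having passed the filter through Folfiri samples in the case of Dcn and Pdgfra and through control samples in that of Col1a1. Col1a2, Col3a1, Pdgfrb and Thy1 held at most 3 counts. The part of these markers in the changes of the 10 genes was not tested.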

How the data were processed

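Poly(A) RNA libraries of 3 control and 3 Folfiri samples were grouped by the labels. The authors aligned reads with STAR 2.5.2 to GRCm38 with GENCODE annotation, tallied them over genes with Rsubread and deposited raw counts without normalization. The sources used here give neither the strand setting nor the treatment of multiply mapping reads. The genes and lists were chosen with earlier results of these data known. Symbols, coordinates and exonic lengths came from GENCODE vM21 on the same build, which named 24124 of 24190 identifiers. edgeR 4.0.16 in R 4.3.3 was run with filterByExpr, TMM normalization and the quasi-likelihood test. P-values were adjusted by Benjamini-Hochberg over all genes tested, with a threshold of 0.05. SE is the log2 fold change over the square root of F. RPKM divides TMM-normalized CPM by exonic kilobases, the union of all annotated exons of a gene. Levels, shares and ratios compared between genes depend on this length. Depth was 22103591 to 30098210 counts, which sets counting error only. Named genes were the 10 genes, Rel, Ikbkb, Chuk, Ikbkg, Map3k14, Cyld, Birc2 and, per other list and direction, up to 4 called genes of at least 1 CPM on average with separate groups and the largest changes, together with the 3 genes nearest in pattern to Nfkbia and to Nfkb2. Alternatives were DESeq2 size factors, total counts, upper quartile factors, other filters, the Wald test of DESeq2 1.42.0, the replicate block and each sample left out. The procedure was tested on simulated data. Results for 1 of the marker genes are not reported here.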

Additional observations from a re-analysis of the deposited data

How the results depend on the processing

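The log2 fold changes of the 10 genes were recomputed under 13 alternatives. Of 130 values, 127 kept their direction and call, none changed direction, and 3 lost the call, all of Nfkbiz without a Folfiri replicate. Over the whole table, 10630 to 12742 genes were called under other scalings, filters and tests, and 11021 to 12312 when 1 sample was left out. The 10 genes called higher became 9 at the lowest when 1 sample was left out. With the replicate number as a replicate block, 11499 genes were called and all 10 genes stayed higher, Nfkbiz with an edgeR adjusted p of 0.00544; the block changed no call among the 10. The adjusted p of each of the 10 was lower with the block than without it. Deviations of same-numbered samples correlated at 0.03, -0.12 and 0.04, and those of differently numbered samples at -0.12 to 0.12. With 3 samples per group, these values cannot decide whether the numbers pair the samples. The ratios were recomputed without each sample, an alternative chosen after seeing the data. Differences ranged from 0.0861 to 0.163 for Relb over Rela, -0.101 to 0.0684 for Nfkb2 over Nfkb1, -0.923 to -0.548 for Nfkbia over Rela, 2.53 to 2.75 for Nfkbie over Nfkbia, -0.147 to 0.00703 for Nfkbiz over Nfkbia and 0.844 to 0.912 for Tnfaip3 over Cyld. Signs turned for Nfkb2 over Nfkb1 and Nfkbiz over Nfkbia, whose groups overlap, and the cause was not tested. Scaled by total counts alone, Nfkbil1, Ticam1, Pdlim2, Cflar and the marker Krt8 lost their calls as lower. So did further genes of the lists that are not named here. Named genes outside the 10 were refitted without each sample as well, also chosen after seeing the data, and Rel, Nfkbil1, Chuk and Ticam1 lost their calls in at least 1 such fit. Among the 10, depth limits Nfkbie most, at 6 counts in each control sample.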
